A study of Mus musculus with 62 samples.

Results

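The cerebellum of mice carrying a melanoma that causes cachexia was compared with that of mock-injected mice 6 weeks (wk) after injection. The comparison was chosen by treatment and week alone, and took 10 of the 62 RNA-seq libraries of the series: 5 from the cachectic melanoma group (CAC, injected with cachectic melanoma cells) and 5 from the mock group (labelled Con, no tumour cells). To place some values, the 5 libraries of the non-cachectic melanoma (NCAC) at the same week were set beside them, and the CAC and mock libraries of 2, 4 and 8 wk show the course over time. The series holds 12 groups of 5 libraries, except CAC at 8 wk with 7. All mice were female and 2 months old, and no transgene or deletion is given for any group. The sample fields give the strain as C57BL6/J, whereas the series description gives NCI Ath/nude, a mouse without a thymus, so the strain and the T cells of the host remain unsettled. The melanoma lines are not named in the labels used here. The libraries are labelled as biological replicates but not tied to named animals, so p-values rest on the spread between libraries. For limma that spread was estimated over all 62 libraries of the 12 groups, not from the 10 compared libraries alone.

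Cachexia is the wasting of muscle and fat that accompanies many tumours. Inflammatory cytokines of the IL-6 family signal through receptors that share the subunit gp130 and activate the transcription factor STAT3, which induces acute-phase genes and its own inhibitor Socs3. Illness and fasting also raise adrenal glucocorticoids, which enter the brain and act through the receptor Nr3c1 on genes such as Fkbp5, Sgk1 and Mt1. In the cerebellum these signals reach Purkinje and granule neurons, Bergmann glia and other astrocytes, oligodendrocytes, and the vessel wall.

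The libraries carried cerebellar transcripts. The 12 granule cell markers, among them Gabra6 and Neurod1, summed to between 5759 and 7011 TPM (transcripts per 1e+06 transcripts) in CAC and between 6253 and 6639 TPM in mock. The 13 Purkinje cell markers summed to between 7499 and 8355 TPM in CAC and between 7563 and 8165 TPM in mock. Choroid plexus transcripts differed far more between libraries than between groups: the 12 markers summed to between 1746 and 6032 TPM in CAC and between 184.4 and 7531 TPM in mock. Mitochondrially encoded genes took 19.4 ± 1.10% of TPM in CAC and 20.55 ± 0.958% in the mock libraries (SD over 5 libraries each, exact two-sided permutation p = 0.127). TPM holds no sequencing depth, which is therefore unknown for these libraries.

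At 6 wk 248 of 14399 tested genes differed between CAC and mock, 1.72% of those tested, by limma with a Benjamini-Hochberg adjusted p under 0.05. Of these, 203 were higher in CAC (1.41%) and 45 lower (0.313%), where 2297 genes (16.0%) had an unadjusted p under 0.05, 1636 of them higher (11.4%) and 661 lower (4.59%). Most changes were small: the median size among called genes was 0.33 on the log2 scale, and a difference of 1.5-fold or more was reached by 58 genes (0.403%), of which 53 were higher (0.368%) and 5 lower (0.0347%). In 156 of the called genes the libraries did not overlap between groups, 138 higher and 18 lower. Over all tested genes, 350 (2.43%) had every CAC library above every mock library and 78 (0.542%) every CAC library below. The surplus of higher genes depended on the scaling. With median-of-ratios scaling 113 of 208 called genes were higher, with quantile normalization 96 of 200, and with the mitochondrially encoded genes removed 122 of 204. Of the 248 genes 130 kept their call and direction under all 3 scalings, 85 of them higher and 45 lower. CAC replicate 1 carried many of the calls. Without it 20 genes passed, all of them among the 248, and without CAC replicate 4, 527. Leaving out 1 mock library gave between 68 (replicate 3) and 261 (replicate 1). The 20 genes that passed whichever of the 10 libraries was left out were all higher in CAC: Lrg1, Lcn2, Osmr, Ch25h, Phyhd1, Vwf, Ly6c1, Sparc, Tgm2, Grrp1, Tmem252, Podxl, Col5a3, Tmsb4x, Cotl1, Pon2, Neat1, Adcyap1r1, Fam213a and Minos1. With the spread estimated from these 10 libraries alone, limma called 0 genes, and 2057 had an unadjusted p below 0.05.

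**Figure D1:**
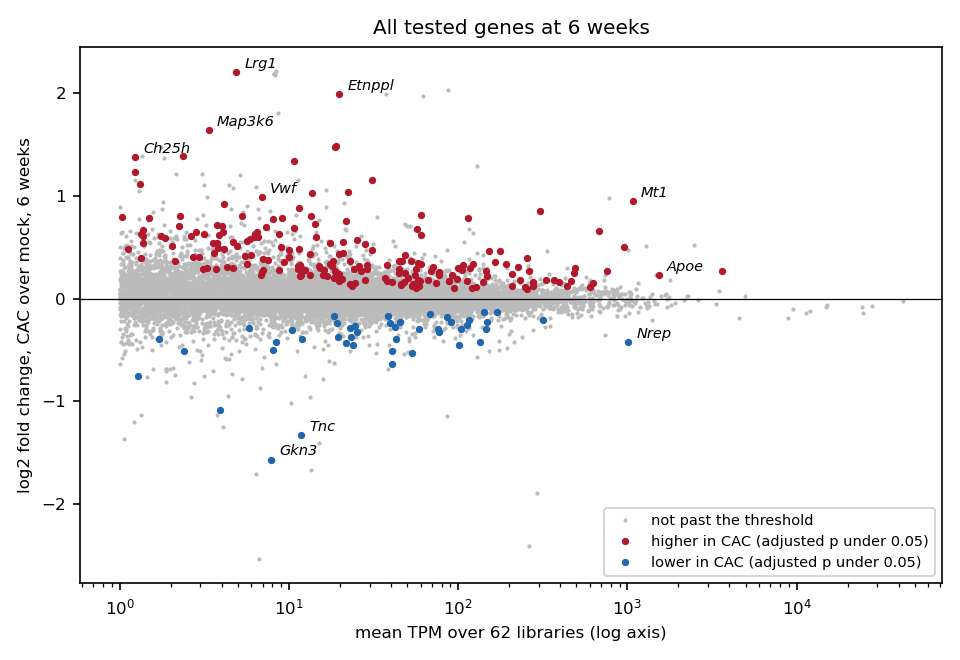
Log2 fold change of CAC over mock at 6 wk (vertical axis) against mean TPM over all libraries (horizontal axis, log scale) for the 14399 tested genes. Genes called higher in CAC are red and genes called lower are blue. The called genes above 1 on the log2 scale are few and Lrg1 stands at the top, at 2.21.

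Some genes of the inflammatory and STAT3 response rose in CAC, 5 of 13 acute-phase genes and 4 of 17 STAT3 targets, where 1.41% of all tested genes were called higher. Lrg1 and Lcn2 are counted in both lists, which were chosen with earlier results of these data known. Lrg1 had the largest fold change among called genes, and encodes a secreted glycoprotein of the acute-phase response (chr17:56119678-56122001, minus strand, GRCm38). Lrg1 stood at 25.6, 9.34, 12.3, 6.30 and 8.47 TPM in CAC replicates 1 to 5, against 2.00, 1.27, 1.38, 1.58 and 1.90 TPM in mock replicates 1 to 5. Every CAC library lay above every mock library, with CAC replicate 1 far above the others. The CAC mean was 7.64-fold the mock mean, and the log2 fold change was 2.21 ± 0.25 (SE, limma adjusted p = 1.22e-07). Lcn2, the iron-sequestering lipocalin of acute inflammation (chr2:32384633-32388252), stood at 3.49, 1.73, 2.90, 0.922 and 2.14 TPM in CAC and at 0.745, 0.201, 0.284, 0.333 and 0.108 TPM in mock. The groups did not overlap, although the lowest CAC library was close to the highest mock library (log2 fold change 1.24 ± 0.24, adjusted p = 0.00392). These are low levels, at which adding 1 TPM before taking logs shrinks the fold change. Fewer cells of a type and less RNA per cell cannot be told apart in such bulk tissue, here or for any gene below.

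Osmr and Socs3, a receptor subunit and a feedback inhibitor of the pathway, followed the same direction. Osmr, which pairs with gp130 to bind oncostatin M (chr15:6813577-6874969), stood at 2.71, 2.53, 2.53, 1.38 and 2.16 TPM in CAC and at 1.17, 1.09, 1.28, 0.825 and 1.21 TPM in mock. All CAC libraries were above all mock libraries, and the log2 fold change was 0.61 ± 0.12 (adjusted p = 0.00322). Socs3, the inhibitor that STAT3 induces (chr11:117966079-117970047), stood at 4.03, 2.66, 3.11, 2.48 and 2.47 TPM in CAC and at 1.96, 1.82, 1.87, 0.839 and 1.64 TPM in mock. Its groups did not overlap either (0.59 ± 0.13, adjusted p = 0.011), but the call was lost without CAC replicate 1 (adjusted p = 0.0994) or mock replicate 4 (0.0512). At an unadjusted p under 0.05, 10 of 17 tested STAT3 targets were higher and 1 lower, beside 11.4% and 4.59% of all tested genes. The lower gene was Socs1, another feedback inhibitor (-0.34, adjusted p = 0.169 in limma). Of the 17 targets 4 were called higher and 0 lower, with a median log2 fold change of 0.33, beside 0.02 over all tested genes. The 4 were Lrg1, Lcn2, Osmr and Socs3, and without CAC replicate 1 they were 3. Of 11 receptor and signalling components 1 rose, Osmr, which is thus counted in this list too. Il6st, which encodes gp130, had a log2 fold change of 0.00, Il6ra one of 0.28 (adjusted p = 0.12) and Stat3 one of 0.16 (adjusted p = 0.084). Of 5 tested ligands of the IL-6 family none passed, and Ctf1, cardiotrophin 1, had the smallest p (0.23, adjusted p = 0.321). Il6 itself averaged 0.0542 TPM in CAC and 0.0108 TPM in mock, Lif 0.114 and 0.0900 TPM, and Osm 0.0683 and 0.0495 TPM, all below the level tested.

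The promoter of Socs3 is shown because it holds the spaced palindrome that STAT dimers bind, written here as TTCNNNGAA and given in capitals. The stretch is the 250 bases before the start of the gene on the minus strand, chr11:117969367-117969616 of the RefSeq table for GRCm38.p6, and the match begins 154 bases before the start. RefSeq and GENCODE differ on that start: GENCODE, whose bounds are given above, begins Socs3 at 117970047, so the stretch lies inside the gene as GENCODE draws it.
Socs3 promoter: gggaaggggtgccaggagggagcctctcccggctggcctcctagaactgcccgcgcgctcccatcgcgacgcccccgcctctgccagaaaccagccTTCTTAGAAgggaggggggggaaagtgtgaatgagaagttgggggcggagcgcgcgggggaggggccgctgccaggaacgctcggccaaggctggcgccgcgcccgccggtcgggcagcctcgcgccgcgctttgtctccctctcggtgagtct
The motif was present in 10 of 153 promoters of genes called higher (6.54%), in 2 of 33 of genes called lower (6.06%) and in 623 of 10668 promoters of tested genes (5.84%), searched on both strands. The called genes thus held it at about the rate of all tested genes. In the promoter of Lrg1 these letters were not found.

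Other acute-phase and cytokine response genes moved less. Of 33 listed genes 13 were expressed at the level tested, and of these 5 rose and 0 fell, with a median log2 fold change of 0.44. Beside Lrg1 and Lcn2 these were Cp, Itih3 and Il1r1. Cp, the copper-binding ferroxidase ceruloplasmin, ranged from 8.95 to 14.6 TPM in CAC and from 6.27 to 8.96 TPM in mock (0.50 ± 0.12, adjusted p = 0.0214), so the groups touched. Itih3, a heavy chain of the inter-alpha-trypsin inhibitor, ranged from 162 to 221 TPM in CAC and from 130.5 to 159 TPM in mock, without overlap (0.47 ± 0.12, adjusted p = 0.0326). Il1r1, the signalling receptor for interleukin 1, ranged from 5.05 to 9.53 TPM in CAC and from 3.35 to 5.15 TPM in mock (0.55 ± 0.15, adjusted p = 0.0334), with an overlap. Without CAC replicate 1 the adjusted p of these 3 genes lay between 0.157 and 0.244, and the list then held 2 calls. Serpina3h, a serine protease inhibitor whose reads may be shared with near-identical copies and whose value is therefore uncertain, ranged from 1.01 to 5.11 TPM in CAC and from 0.0649 to 0.973 TPM in mock (1.12 ± 0.25, adjusted p = 0.0152, and 0.153 without CAC replicate 1). Its neighbour Serpina3n averaged 17.1 TPM in CAC and 8.53 TPM in mock and missed the threshold (0.82, adjusted p = 0.073). Neutrophils also carry Lcn2 and Lrg1. Of 8 neutrophil markers 2 reached the level tested and 0 passed, all 8 had a higher mean in CAC, and their sum was 2.58 to 13.3 TPM in CAC and 0.923 to 4.4 TPM in mock. The part of such cells in the result was not tested.

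Targets of the glucocorticoid receptor held the most calls of any list by count, though acute-phase genes, with 5 of 13, held a larger share. Of 27 tested targets 8 rose and 0 fell, where 1.41% of all tested genes were called higher. At an unadjusted p under 0.05, 19 of the 27 were higher, beside 11.4% of all tested genes. The median log2 fold change was 0.72. This list was chosen with earlier results of these data known, so its shares are a description and carry no test. Fkbp5, a co-chaperone that restrains the receptor (chr17:28399094-28517527), stood at 40.6, 17.4, 11.3, 11.2 and 19.9 TPM in CAC and at 5.15, 6.02, 8.30, 6.97 and 6.07 TPM in mock. All CAC libraries were above all mock libraries, and CAC replicate 1 was again the highest by far (1.35 ± 0.37, adjusted p = 0.0411). Mt1, the metal-binding metallothionein 1 (chr8:94179082-94180327), stood at 2301, 1813, 1643, 945 and 1441 TPM in CAC and at 742, 770.4, 805, 927 and 816 TPM in mock. CAC replicate 4 barely exceeded the highest mock library (0.95 ± 0.22, adjusted p = 0.0174). Map3k6, a stress-activated MAP kinase kinase kinase (chr4:133240818-133252929), stood at 13.2, 7.08, 6.02, 3.85 and 4.87 TPM in CAC and at 0.950, 1.34, 1.76, 1.66 and 1.30 TPM in mock. Here the groups were well apart, 4.99-fold in the means (1.64 ± 0.39, adjusted p = 0.0205).

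CAC replicate 1 was also the highest library in the other called targets. Sgk1, a kinase that controls ion transport, ranged from 61.5 to 124 TPM in CAC and from 45.3 to 59.4 TPM in mock (0.81 ± 0.21, adjusted p = 0.0279). Cdkn1a, the cell cycle inhibitor p21, ranged from 27.9 to 83.4 TPM in CAC and from 15.7 to 25.01 TPM in mock (1.16 ± 0.28, adjusted p = 0.022). Sult1a1, a sulfotransferase of phenols, ranged from 17.1 to 65.6 TPM in CAC and from 8.18 to 14.1 TPM in mock (1.49 ± 0.39, adjusted p = 0.0324). Arrdc2, an arrestin-domain protein, ranged from 13.8 to 34.3 TPM in CAC and from 8.16 to 10.2 TPM in mock (1.03 ± 0.25, adjusted p = 0.0247). None of these 4 genes overlapped between groups. Lcn2 was the eighth call, and stands in the STAT3 list too. Mt2, the partner of Mt1, missed the threshold (0.98, adjusted p = 0.059), as did Plin4, a lipid droplet protein (1.81, adjusted p = 0.090), and Pdk4, which switches cells from glucose to fat (0.89, adjusted p = 0.10). Tsc22d3, which encodes the leucine zipper protein GILZ, had a log2 fold change of 0.48, Per1 one of 0.00 and Dusp1 one of -0.52, and none of the 3 was called. The list's mean log2 level per library was 6.03, 5.65, 5.40, 4.98 and 5.54 in CAC and 4.75, 4.82, 4.93, 4.96 and 4.78 in mock. CAC replicate 4 therefore lay just above the highest mock library. The calls of this list rested on CAC replicate 1: without it 1 of the 27 passed, Lcn2, at a median of 0.47, and without CAC replicate 4, 14 passed, at a median of 0.93. The adjusted p without CAC replicate 1 was 0.274 for Fkbp5, 0.133 for Mt1, 0.148 for Map3k6, 0.183 for Sgk1, 0.166 for Cdkn1a, 0.198 for Sult1a1 and 0.178 for Arrdc2.

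None of 8 tested genes of steroid receptors and steroid activation was called, where 1.72% of all tested genes were called. At an unadjusted p under 0.05, 4 were lower, beside 4.59% of all tested genes. These were Nr3c1 and the chaperones Hsp90aa1, Hsp90ab1 and Fkbp4. The others, Nr3c2, Hsd11b1, Ncoa1 and Ncoa2, had log2 fold changes from -0.06 to 0.10. Nr3c1, the glucocorticoid receptor, was 51.5, 56.7, 62.9, 61.9 and 58.5 TPM in CAC and 68.0, 63.7, 72.7, 65.3 and 68.9 TPM in mock. Its groups did not overlap, but the difference missed the threshold (-0.21 ± 0.07, adjusted p = 0.0841).

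The promoters of Map3k6 and Mt1 are shown because they were the 2 of 153 promoters of genes called higher (1.31%) that held the palindrome of a glucocorticoid response element, GNACA and TGTNC with 3 bases between them, given in capitals. Among genes called lower 0 of 33 promoters held it, and among all tested genes 29 of 10668 (0.272%). Both lie on the plus strand of GRCm38.p6 in the RefSeq table, at chr4:133240568-133240817 for Map3k6 and chr8:94178839-94179088 for Mt1. The match begins 181 bases before the start of Map3k6 and 94 bases before that of Mt1.
Map3k6 promoter: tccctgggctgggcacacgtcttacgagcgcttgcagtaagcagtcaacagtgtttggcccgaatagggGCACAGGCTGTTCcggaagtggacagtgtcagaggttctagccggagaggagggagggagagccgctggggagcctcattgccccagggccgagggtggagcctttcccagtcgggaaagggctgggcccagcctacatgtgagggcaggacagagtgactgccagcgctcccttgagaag
Mt1 promoter: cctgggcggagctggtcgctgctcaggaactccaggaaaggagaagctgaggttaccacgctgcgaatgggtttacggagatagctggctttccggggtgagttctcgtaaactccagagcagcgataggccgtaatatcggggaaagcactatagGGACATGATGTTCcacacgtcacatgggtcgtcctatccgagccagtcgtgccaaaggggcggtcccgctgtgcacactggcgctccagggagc
With 2 promoters the share is a count and no more, and a match is not evidence of binding. The E-box CACGTG was found in 8 of 153 promoters of higher genes (5.23%) and 886 of 10668 of all (8.31%), and the FOXO element GTAAACA in 1 of 153 (0.654%) and 212 of 10668 (1.99%).

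**Figure D2:**
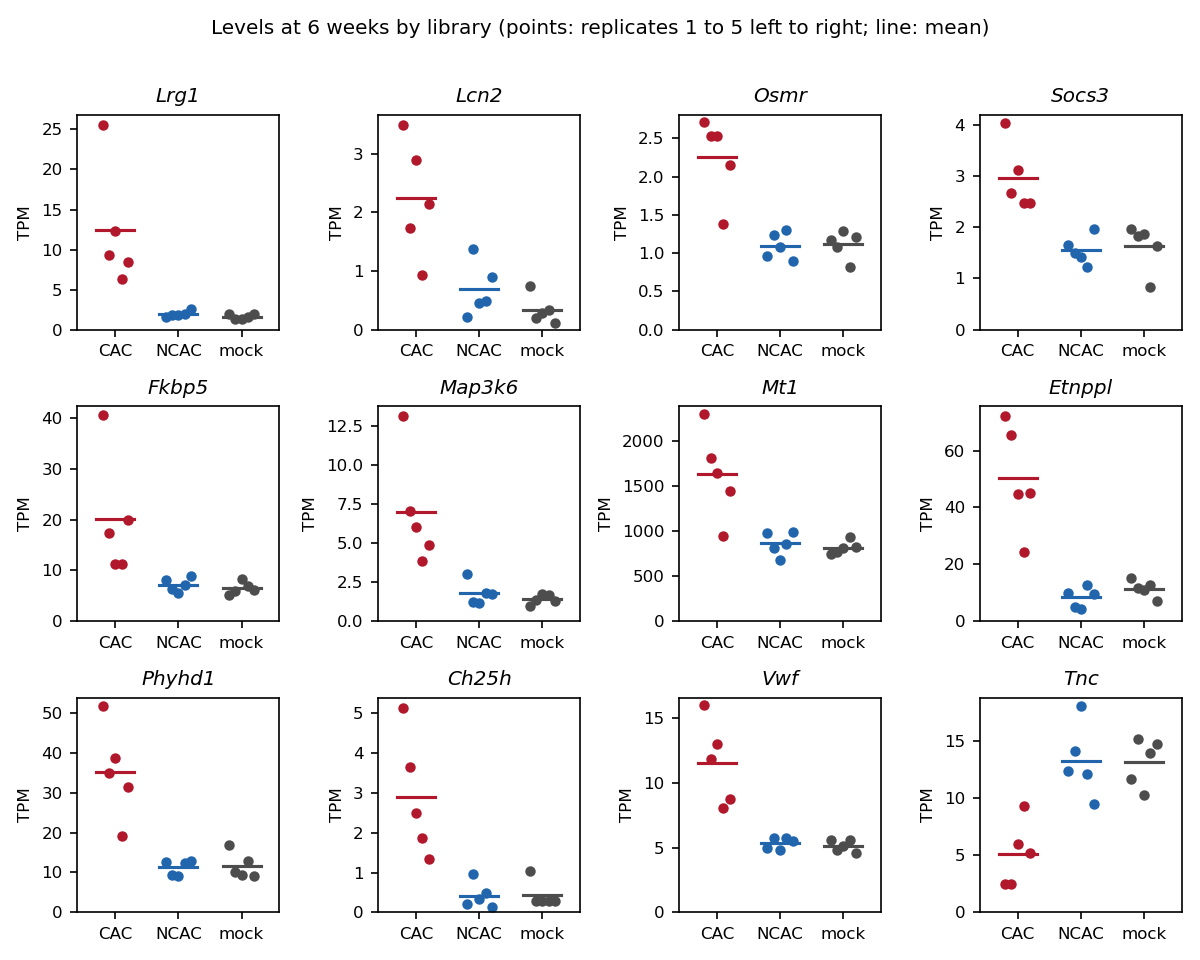
TPM (vertical axis, from 0) of 12 genes in each library at 6 wk, with CAC, NCAC and mock from left to right. Points are libraries, numbered by replicate, and lines are group means. Lrg1 lies between 6.30 and 25.6 TPM in CAC and between 1.27 and 2.00 TPM in mock, and CAC replicate 1 is the highest CAC library in Lrg1, Fkbp5 and Vwf.

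The lists of fuel use and wasting held no call, and no test was run on a list as a whole. Of all tested genes 1.72% were called, a rate at which the lists of this paragraph can readily hold none or 1. Of 19 fasting and fuel genes 0 were called. At an unadjusted p under 0.05, 7 were higher and 1 lower, beside 11.4% and 4.59% of all tested genes. Pnpla2, the triglyceride lipase ATGL, ranged from 32.2 to 53.6 TPM in CAC and from 25.01 to 29.0 TPM in mock and just missed the threshold (0.53, adjusted p = 0.0529). Of 19 FOXO, atrophy and autophagy genes 0 were called, with 5 higher and 1 lower at an unadjusted p under 0.05. The closest were Txnip, an inhibitor of glucose uptake, at 0.80 (adjusted p = 0.0588), and the transcription factor Foxo1 itself, at 0.49 (adjusted p = 0.0898). In both genes every CAC library exceeded every mock library. In the insulin and IGF list 1 of 16 rose, the binding protein Igfbp4 (7.10 to 14.2 TPM in CAC and 4.35 to 6.91 TPM in mock, 0.65 ± 0.18, adjusted p = 0.0411). Among 16 growth arrest genes Cdkn1a alone was called. Of 14 core clock genes 1 rose, Npas2, a partner of Bmal1 (2.75 to 4.24 TPM in CAC and 1.46 to 2.64 TPM in mock, 0.61 ± 0.16, adjusted p = 0.0279). Without CAC replicate 1 neither Igfbp4 (adjusted p = 0.275) nor Npas2 (0.153) passed. None of 7 clock output genes, 15 immediate early genes or 14 hypoxia genes was called.

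Of 21 tested markers of astrocytes and of Bergmann glia, the radial astrocytes of the cerebellar cortex, 2 rose, 2 fell and the others did not pass. Of all tested genes 1.41% were called higher and 0.313% lower. The list's median log2 fold change was 0.07. Etnppl, an astrocyte enzyme that breaks down phosphoethanolamine (chr3:130617448-130637521), stood at 72.2, 65.4, 44.7, 24.4 and 45.2 TPM in CAC and at 14.98, 11.7, 10.9, 12.6 and 7.00 TPM in mock. The groups were far apart in every library except CAC replicate 4, which was still above mock (1.99 ± 0.45, adjusted p = 0.0129, 0.0866 without CAC replicate 1). Phyhd1, a dioxygenase of the phytanoyl-CoA hydroxylase family (chr2:30266203-30282149), stood at 51.7, 35.03, 38.8, 19.2 and 31.5 TPM in CAC and at 16.9, 10.1, 9.39, 12.8 and 9.17 TPM in mock. Its groups did not overlap, and the call held whichever library was left out (1.48 ± 0.28, adjusted p = 0.00219). Tnc, the matrix protein tenascin C of Bergmann glia (chr4:63959785-64047015), went the other way, at 2.47, 2.48, 6.03, 9.36 and 5.16 TPM in CAC and at 11.7, 15.2, 10.3, 13.9 and 14.7 TPM in mock. All CAC libraries lay below all mock libraries (-1.33 ± 0.31, adjusted p = 0.017, 0.123 without CAC replicate 1). Mfge8, a secreted bridge between dying cells and phagocytes, ranged from 24.7 to 36.4 TPM in CAC and from 39.8 to 47.1 TPM in mock (-0.50 ± 0.12, adjusted p = 0.0205, 0.139 without CAC replicate 1). Fabp7, the fatty acid carrier of radial glia, stood at 15.6, 22.0, 27.0, 77.7 and 40.6 TPM in CAC and at 75.02, 70.4, 71.4, 56.2 and 80.6 TPM in mock. The 4 CAC libraries other than replicate 4 were below all mock libraries, and replicate 4 was within their range. The gene missed the threshold (-1.14, adjusted p = 0.0926), and passed in the fit without CAC replicate 4 (adjusted p = 0.0171). Phyhd1 was the only one of the 20 stable genes in this list, and its promoter is shown because it holds the STAT palindrome, in capitals, 75 bases before the start (chr2:30265953-30266202, plus strand, RefSeq, GRCm38.p6).
Phyhd1 promoter: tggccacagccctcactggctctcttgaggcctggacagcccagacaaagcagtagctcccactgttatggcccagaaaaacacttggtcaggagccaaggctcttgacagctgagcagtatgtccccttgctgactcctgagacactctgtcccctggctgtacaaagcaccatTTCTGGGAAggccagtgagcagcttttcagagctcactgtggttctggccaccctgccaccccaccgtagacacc

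Some genes of the vessel wall and the matrix were among those that passed whichever library was left out, among them Vwf, Ly6c1, Sparc and Tgm2. Vwf, the clotting factor of endothelial granules (chr6:125546774-125686679), stood at 16.0, 11.8, 13.02, 8.11 and 8.75 TPM in CAC and at 5.57, 4.85, 5.17, 5.62 and 4.60 TPM in mock. The lowest CAC library was well above the highest mock library (0.99 ± 0.16, adjusted p = 0.000309). Ly6c1, a surface protein of brain endothelium with close paralogs and therefore uncertain, ranged from 58.2 to 101 TPM in CAC and from 47.5 to 56.3 TPM in mock (0.62 ± 0.11, adjusted p = 0.00105). Gkn3, a gastrokine used as a marker of arterial endothelium, fell, at 1.46, 3.04, 1.04, 7.46 and 2.90 TPM in CAC and 5.65, 11.7, 10.6, 11.9 and 11.1 TPM in mock. CAC replicate 4 and mock replicate 1 overlapped (-1.57 ± 0.35, adjusted p = 0.0143, 0.0999 without CAC replicate 1). These 3 were the calls among 18 endothelial markers, 2 higher and 1 lower, with a median of 0.13. Of all tested genes 1.41% were called higher and 0.313% lower. Sparc, a matrix glycoprotein made by glia and endothelium, stood at 1454, 1282, 1177, 1001 and 1005 TPM in CAC and at 823, 794, 830.2, 851 and 836 TPM in mock. The mock libraries lay close together and all CAC libraries were above them (0.50 ± 0.09, adjusted p = 0.002). Tgm2, a transglutaminase that cross-links matrix proteins, ranged from 11.8 to 26.1 TPM in CAC and from 7.20 to 9.72 TPM in mock (0.89 ± 0.14, adjusted p = 0.000309). Grrp1, a glycine- and arginine-rich protein, ranged from 5.39 to 9.06 TPM in CAC and from 2.44 to 4.02 TPM in mock (0.92 ± 0.15, adjusted p = 0.000309). Of 18 matrix genes 1 rose, Sparc, and 1 fell, Tnc, beside the same shares of all tested genes. None of 11 mural cell markers was called.

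**Figure D3:**
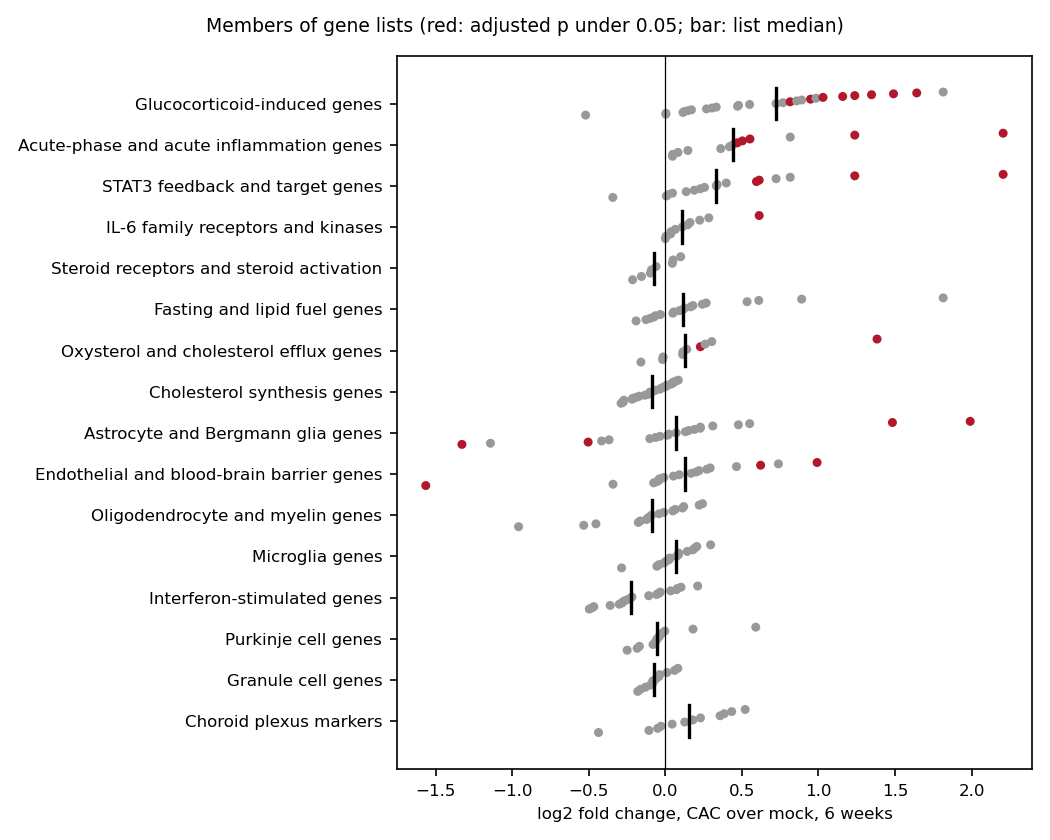
Log2 fold change of CAC over mock at 6 wk (horizontal axis) for each tested member of 16 gene lists, 1 list per row. Red points passed the limma test, the others did not, and the bar marks the list's median. The glucocorticoid targets have their median at 0.72, and most other lists lie around 0.

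Of the lipid genes, 2 of 10 for cholesterol efflux rose, where 1.41% of all tested genes were called higher, and none for cholesterol synthesis was called. Ch25h, which makes 25-hydroxycholesterol (chr19:34473778-34475164), stood at 5.14, 3.64, 2.49, 1.86 and 1.34 TPM in CAC and at 1.03, 0.292, 0.276, 0.287 and 0.281 TPM in mock. Mock replicate 1 stood apart from the other mock libraries and was still below every CAC library (1.38 ± 0.23, adjusted p = 0.000309). Apoe, the main lipid carrier of the brain, ranged from 1613 to 1750.0 TPM in CAC and from 1352 to 1533 TPM in mock, a small and non-overlapping difference (0.23 ± 0.05, adjusted p = 0.0182, 0.079 without CAC replicate 1). Ch25h and Apoe were the 2 called efflux genes. Apod, a lipocalin of glia and perivascular cells, ranged from 320 to 607 TPM in CAC and from 195 to 291 TPM in mock (0.86 ± 0.17, adjusted p = 0.00419). Of 24 cholesterol synthesis genes 0 were called and 6 were lower at an unadjusted p under 0.05, beside 4.59% of all tested genes, with a median of -0.09. Ebp, a sterol isomerase, came closest (-0.29, adjusted p = 0.0661), with every CAC library below every mock library. Of 17 myelin genes 0 were called, where 1.72% of all tested genes were called, a rate at which a list of this size can readily hold none. At an unadjusted p under 0.05, 2 myelin genes were higher and 2 lower, beside 11.4% and 4.59% of all tested genes. The higher were Mobp (log2 fold change 0.24) and Cldn11 (0.22), and the lower were Opalin and Ugt8a (-0.53). Opalin, a myelin membrane protein, stood at 2.94, 9.09, 2.90, 15.7 and 5.19 TPM in CAC and at 15.2, 11.03, 12.1, 9.71 and 15.3 TPM in mock (-0.96, adjusted p = 0.0836), with CAC replicate 4 the highest of all 10. Tnr, tenascin R, was the 1 gene called among 10 oligodendrocyte precursor genes (30.2 to 40.2 TPM in CAC and 36.9 to 42.6 TPM in mock, -0.24, adjusted p = 0.0497), at the edge of the threshold. It passed in 3 of the 10 fits without 1 library, with 0.275 as the largest adjusted p.

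Few neuronal genes passed, where 1.72% of all tested genes were called. At that rate lists of these sizes can readily hold none or 1 call. Cacna1e, the pore of R-type calcium channels, stood at 19.2, 24.8, 28.8, 41.0 and 21.3 TPM in CAC and at 34.1, 41.3, 42.5, 42.0 and 46.7 TPM in mock. CAC replicate 4 overlapped with mock (-0.64 ± 0.16, adjusted p = 0.0257, 0.178 without CAC replicate 1), and the gene was the 1 call among 19 presynaptic genes. Nrep, a small protein linked to neuronal regeneration, ranged from 686 to 1001 TPM in CAC and from 919 to 1090.0 TPM in mock (-0.42 ± 0.09, adjusted p = 0.00997, 0.0759 without CAC replicate 1). Wipf3, a regulator of the actin cytoskeleton, ranged from 16.1 to 18.6 TPM in CAC and from 22.0 to 28.7 TPM in mock, without overlap (-0.43 ± 0.10, adjusted p = 0.0129, 0.0616 without mock replicate 3). None of 13 Purkinje cell, 12 granule cell or 10 inhibitory interneuron markers was called. Car8, a Purkinje cell protein that modulates calcium release, came closest (771 to 965 TPM in CAC and 934 to 1030 TPM in mock, -0.17, adjusted p = 0.0585).

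Several further genes were among the largest changes in either direction. Tmem252, a transmembrane protein, stood at 6.15, 7.35, 4.81, 2.75 and 4.07 TPM in CAC and at 2.27, 0.588, 1.02, 1.26 and 1.27 TPM in mock (1.39 ± 0.28, adjusted p = 0.00437). Prodh, the first enzyme of proline breakdown, ranged from 22.2 to 50.5 TPM in CAC and from 14.9 to 18.7 TPM in mock (1.04 ± 0.22, adjusted p = 0.00821). Slc38a5, an amino acid transporter, ranged from 5.49 to 10.9 TPM in CAC and from 2.82 to 4.29 TPM in mock (0.81 ± 0.20, adjusted p = 0.0257). None of these 3 genes overlapped between groups. Among the genes that fell, Sost, the Wnt antagonist sclerostin, ranged from 0.560 to 4.36 TPM in CAC and from 3.47 to 6.21 TPM in mock (-1.08 ± 0.27, adjusted p = 0.0247), with an overlap. Dhrs2, a short-chain dehydrogenase, ranged from 0.220 to 1.07 TPM in CAC and from 1.32 to 1.87 TPM in mock (-0.75 ± 0.16, adjusted p = 0.011). Pm20d1, an enzyme of N-acyl amino acids, ranged from 1.68 to 1.99 TPM in CAC and from 2.595 to 3.67 TPM in mock (-0.51 ± 0.13, adjusted p = 0.037). Aldh1l2, a mitochondrial folate enzyme, ranged from 5.97 to 7.78 TPM in CAC and from 8.37 to 11.2 TPM in mock (-0.42 ± 0.08, adjusted p = 0.0047). Without CAC replicate 1 the adjusted p was 0.0759 for Prodh and for Dhrs2, 0.104 for Slc38a5, 0.18 for Sost, 0.148 for Pm20d1 and 0.054 for Aldh1l2 and for Apod.

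Immune, organelle and stress genes gave 1 call among 9 lists, where 1.72% of all tested genes were called. Lists of these sizes can readily hold none at that rate. None of 15 microglial, 20 interferon-stimulated, 10 MHC class I and 4 MHC class II genes was called, nor any of 36 nuclear and 13 mitochondrial genes of oxidative phosphorylation, 15 heat shock or 18 unfolded protein response genes. Of 19 proteasome genes 1 rose, Psmd4, by 0.11 on the log2 scale (adjusted p = 0.0481), and it passed in 3 of the 10 fits without 1 library. The 13 mitochondrially encoded genes had a median of -0.08 with TPM as deposited and of 0.00 after quantile normalization. At 8 wk 6 of the 15 microglial genes, 13 of the 24 cholesterol synthesis genes and 13 of the 17 myelin genes were called lower in CAC than in mock, beside 7.34% of all tested genes, though no gene passed the test of the difference between 8 and 6 wk.

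Markers of neighbouring tissue were uneven between libraries. Brainstem markers were all below the level tested, but all 8 had a higher mean in CAC, and their sum was 6.51, 13.8, 4.69, 1.5 and 1.45 TPM in CAC and 0.959, 2.18, 1.40, 1.44 and 1.10 TPM in mock. In NCAC the sum was 1.48, 4.88, 1.98, 6.96 and 14.8 TPM. CAC replicates 1 to 3 thus stood above mock, and CAC replicates 4 and 5 were within the mock range. The part of such tissue in the differences above was not tested. Forebrain markers summed to between 8.29 and 32.7 TPM in CAC and between 7.76 and 12.9 TPM in mock. Meningeal markers summed to between 1311 and 2146 TPM in CAC and between 925.5 and 1839 TPM in mock, and 0 of 10 were called. Of the melanocyte genes, Tyr was at 0 in all 10 libraries, and 0 of the 3 tested were called.

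In the called genes, the 5 CAC libraries stood unequally far from mock. CAC replicate 1 was the highest CAC library in 128 of the 203 genes called higher (63.1%), against 19.4% of all tested genes. CAC replicate 4 was the lowest in 135 (66.5%), against 19.7% of all tested genes. For the 45 genes called lower, CAC replicate 4 was the highest in 34 (75.6%), against 22.0% of all tested genes. CAC replicate 1 was the lowest in 24 of these 45 (53.3%), against 16.8% of all tested genes. On a scale where the mock mean is 0 and the CAC mean is 1, the median position over the 53 genes higher by at least 1.5-fold was 1.51, 1.07, 1.04, 0.475 and 0.877 in CAC replicates 1 to 5. Over the 5 genes lower by at least 1.5-fold it was 1.52, 1.11, 1.10, 0.231 and 0.946. These counts and positions describe genes chosen for their difference from mock, with calls that depended on CAC replicate 1. They are therefore partly set by that choice and carry no test.

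**Figure D4:**
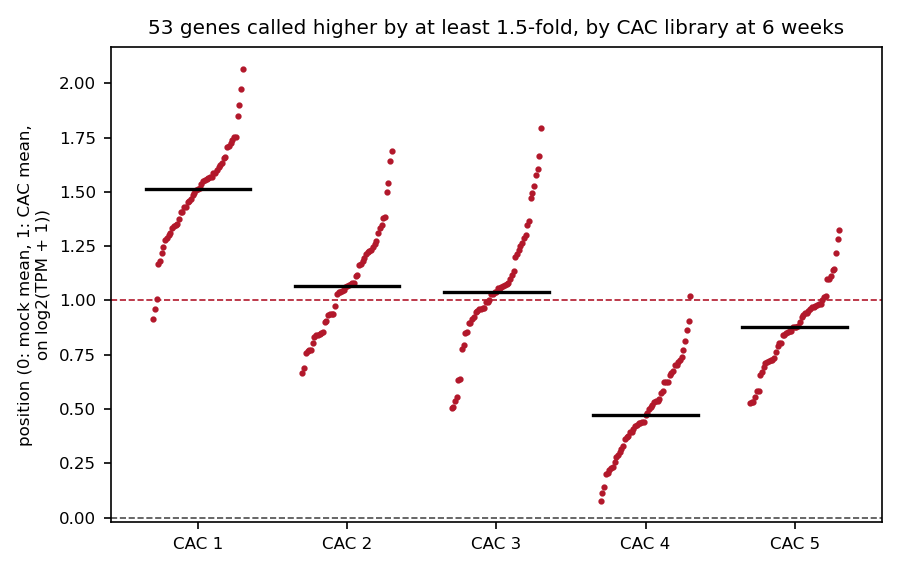
Position of each CAC library between the mock mean (0) and the CAC mean (1) for the 53 genes higher by at least 1.5-fold. Points are genes and the bar is the median. Replicate 1 has its median at 1.51 and replicate 4 at 0.475, and the other 3 libraries lie near 1.

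The non-cachectic melanoma was set against the same mock libraries to see how far a tumour without cachexia differed. Between NCAC and mock 0 genes passed (0.0%) in limma, with 1202 (8.35%) at an unadjusted p under 0.05. Between CAC and NCAC 1361 genes passed (9.45%), 1075 higher in CAC (7.47%) and 286 lower (1.99%), where 3728 (25.9%) had an unadjusted p under 0.05. The balance of directions turned with the scaling: 443 of 1065 called genes were higher with median-of-ratios scaling, 450 of 1075 with quantile normalization and 556 of 1022 with the mitochondrially encoded genes removed. This contrast is also the test of whether the difference from mock was unequal in the 2 melanomas, and it shares the CAC libraries with CAC against mock and the NCAC libraries with NCAC against mock. Lrg1 was higher in CAC than in NCAC by 2.05 on the log2 scale (adjusted p = 1.14e-06), and stood at 0.16 in NCAC over mock (adjusted p = 0.889). For Osmr the values were 0.62 (adjusted p = 0.00181) and -0.01, for Ch25h 1.39 (adjusted p = 0.000427) and -0.01, for Vwf 0.94 (adjusted p = 0.000757) and 0.05, and for Tnc -1.32 (adjusted p = 0.00746) and -0.01. For Lcn2 they were 0.92 (adjusted p = 0.0146) and 0.32. Some genes that missed the threshold against mock passed against NCAC. Their log2 fold changes of CAC over NCAC were -1.28 for Opalin (adjusted p = 0.008), -1.52 for Fabp7 (adjusted p = 0.00985) and 1.74 for Plin4 (adjusted p = 0.0484). The lists followed: 13 of 27 glucocorticoid targets and 6 of 17 STAT3 targets were higher in CAC than in NCAC. Lower were 8 of 17 myelin genes and 8 of 24 cholesterol synthesis genes. For myelin genes the median log2 fold change was -0.23 in CAC over NCAC, 0.21 in NCAC over mock and -0.09 in CAC over mock. For cholesterol synthesis genes these medians were -0.24, 0.11 and -0.09. In both lists the NCAC median thus lay above mock, though no gene passed between NCAC and mock. The count of 1361 fell to 247 without CAC replicate 1.

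From 4 to 8 wk the number of genes called was larger at each later week. At 4 wk 1 gene passed between CAC and mock (0.00694%), Lrg1, where 1149 (7.98%) had an unadjusted p under 0.05. At 8 wk 2990 passed (20.8%), 1933 higher (13.4%) and 1057 lower (7.34%). That week had 7 CAC libraries against 5 mock, and 4 and 6 wk had 5 against 5, so the counts come from unequal group sizes. No library is shared between weeks. Of the 203 genes higher at 6 wk 154 (75.9%) were also called higher at 8 wk, which is 7.97% of the genes higher at 8 wk. Of the 45 lower 30 (66.7%) were also called lower, 2.84% of those at 8 wk. At 4 wk, where almost nothing was called, 190 of the 203 (93.6%) were on the higher side, as were 56.8% of all tested genes, and 41 of the 45 (91.1%) were on the lower side, as were 43.2% of all. The change was larger at 8 wk than at 6 wk in 94 of the 203 genes and in 17 of the 45, and so not in most of them. Among the 58 genes changed by at least 1.5-fold it was larger at 8 wk in 41. At 4 wk it was larger than at 6 wk in 1 gene of the 248. The genes were selected on their values at 6 wk, so these counts carry no test. Lrg1 had log2 fold changes of 0.13, 1.32, 2.21 and 2.52 at 2, 4, 6 and 8 wk, Lcn2 of 0.05, 0.43, 1.24 and 2.01, and Fkbp5 of 0.11, 0.43, 1.35 and 2.03. Vwf had 0.40, 0.99 and 1.14 at 4, 6 and 8 wk, and Tnc -0.74, -1.33 and -1.72. The increments between weeks were not separable gene by gene: the change from 4 to 6 wk passed in 0 genes (546 at an unadjusted p under 0.05, 3.79%) and that from 6 to 8 wk in 0 genes (1186, 8.24%). Called genes of 6 wk with the opposite sign at 8 wk were 6: Cd164l2, Fam234a, Gfod1, Rpl27-ps3, Tmem218 and Zfp398.

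**Figure D5:**
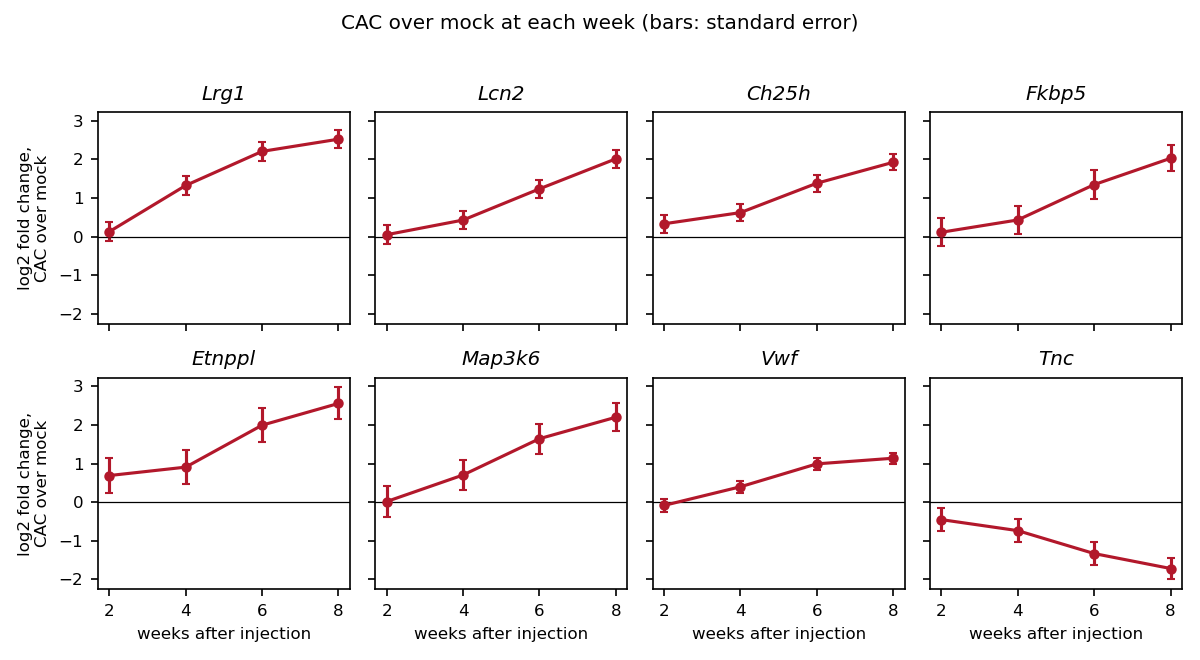
Log2 fold change of CAC over mock (vertical axis) at 2, 4, 6 and 8 wk (horizontal axis) for 8 genes, with error bars of 1 SE from the fit of all libraries. Lrg1 stands at 1.32, 2.21 and 2.52 at 4, 6 and 8 wk and Tnc at -0.74, -1.33 and -1.72.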

How the data were processed

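The authors deposited 1 table of TPM per gene symbol for the 62 libraries, and each library sums to 1e+06. Per the submitters' processing notes the build was mm10, and no aligner, quantifier or annotation is named in the sources used. Per the labels' protocols, RNA was extracted with Trizol and sequenced after a stranded mRNA preparation. TPM holds no depth, so no counting interval is given, and an increase in abundant genes lowers all other values. The treatment field, which names cachectic cells for every sample, and a protocol remark on LLC cells were not used. Groups and replicate numbers came from the sample descriptions.

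The 14399 symbols averaging 1 TPM or more across the series were tested on the log2(TPM + 1) scale, on which fold changes of low genes are understated. All 12 groups were fitted together in limma 3.58.1 (R 4.3.3, lmFit, contrasts.fit and eBayes with trend, 50 residual degrees of freedom). P-values were two-sided with Benjamini-Hochberg adjustment over all 14399 symbols and a threshold of 0.05. Tables were made with pandas 2.3.3, exact tests with scipy 1.17.1 and figures with matplotlib 3.10.9. On simulated data made from these libraries the fit recovered, for CAC against mock, 29, 47, 49 and 49 of 50 genes changed by 1.25-, 1.5-, 2- and 4-fold, with 12 false calls. The simulated noise was independent for each gene and library, with the same spread of a gene in all groups. It held no deviation shared by many genes of 1 library, so these figures need not hold for the uneven CAC group.

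The 44 gene lists (617 genes, 615 in the table, 542 tested) are described by counts and medians. The members, the lists and the tests were chosen with earlier results of these data known. Named genes were the 20 largest and 15 smallest called fold changes, up to 5 called members of each list, up to 2 with the smallest p of each list with none, and the 6 largest and 6 smallest between CAC and NCAC, without clone and pseudogene names. Of the largest and smallest, Ddah2, Car15, Lxn and Ptn were called lower and are not described further. A few further list members, the 20 genes that passed in every fit without 1 library, and the 6 with opposite signs at 8 wk were named after their values were seen. Coordinates are from GENCODE release M21 and promoters from RefSeq (GRCm38.p6), both of the same build as mm10. Promoters took 250 bases before the start.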

Additional observations from a re-analysis of the deposited data

Results flagged for a closer look

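In 17 of 218 groups of 5 libraries tested, 1 library stood far from the other 4, by a ratio of gap to range above Dixon's 95% critical value of 0.71. Chance flags about 1 group in 20.

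CAC replicate 1 stood above the other CAC libraries in Serpina3h (5.11 TPM, the others 1.01 to 1.72), Foxo1 (24.9 TPM, the others 14.6 to 16.0) and Igfbp4 (14.2 TPM, the others 7.10 to 8.83). CAC replicate 4 stood above them in Nrep (1001 TPM, the others 686 to 746), Kit (148 TPM, the others 113 to 118) and Col2a1 (2.82 TPM, the others 0.526 to 1.12). In Nrep and Col2a1, CAC replicate 4 lay within the mock range, and in Kit above it. CAC replicate 3 was the lowest in Wipf3 (16.1 TPM, the others 18.3 to 18.6), and CAC replicate 5 the highest in Hba-a2, an alpha globin (237 TPM, the others 2.02 to 36.7).

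Mock replicate 1 stood apart in 6 genes. It was the highest in Ch25h (1.03 TPM, the others 0.276 to 0.292), Cd74 (25.3 TPM, the others 5.45 to 10.1), Igkc (98.6 TPM, the others 0.495 to 1.07) and Kit (144.5 TPM, the others 132 to 136), and the lowest in Gkn3 (5.65 TPM, the others 10.6 to 11.9) and Nrep (919 TPM, the others 1040.0 to 1090.0). Mock replicate 4 was the lowest in Socs3 (0.839 TPM, the others 1.64 to 1.96) and H2-D1 (9.33 TPM, the others 94.5 to 116), and mock replicate 5 the highest in Lamp5 (5.76 TPM, the others 1.21 to 1.75).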

How the results depend on the processing

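The count of 248 genes between CAC and mock was 629 with sample weights, 0 in a fit on the compared groups alone, and 58 with a limit of 1.5-fold. With 1 library left out it ran from 20 to 527. Between CAC and NCAC the count of 1361 was 2624 with sample weights, 348 in the fit on the compared groups alone, and ran from 247 to 1690 with 1 library left out. The change from 4 to 6 wk gave 1 gene without the filter on low values. That from 6 to 8 wk gave 3 without the filter, 1 with median-of-ratios scaling, 1 with quantile normalization, 5 with sample weights and 0 to 2 with 1 library left out. The counts stayed within 1.5 times under a pseudocount of 0.1 (234 for CAC against mock), no filter (183), a filter at 5 TPM (203) and a choroid plexus covariate (221). The replicate numbers share only a number: same-numbered libraries of CAC and mock did not deviate together (r from -0.123 to 0.0887), and a replicate block gave 158 genes. Among values of named genes under the alternatives, 1867 kept their direction and side of the threshold, 233 no longer passed, 52 newly passed and 3 turned: Slc4a5 (-0.059 without mock replicate 4, up to 0.51), Clic6 (-0.083 without mock replicate 4, up to 0.61) and Igkc (0.15 without mock replicate 1, down to -1.36), none of which was called. The causes were not tested.

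The main limit is the uneven CAC group. With TPM alone, depth cannot be weighed, and a gene under 1 TPM on average, such as Il6, was not tested.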
